A study of Rattus norvegicus with 8 samples.

Results

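The rat array used here, of the Agilent format, carries 3587 probes for transcripts whose accession begins with MRAK, among 24684 noncontrol probes in all. GenBank entries with the prefix AK are largely full-length mouse cDNA clones of the RIKEN collection, and MRAK is read here as the rat counterpart of such a clone. The array files do not spell out the prefix, and coding capacity was not checked. The rule for members uses this prefix and no measured value, but it was set with earlier results of these data known. From the set, 1 MRAK accession was left out and is not analysed here. Each member had 1 probe printed in 3 spots, so every value below rests on a single probe sequence. None of the 3587 names was matched in the RefSeq gene table used for gene names, and no member is tied to a named gene here.

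Male Sprague-Dawley rats were the source of the RNA, from full-thickness skin. The sham group (4 samples) received sodium citrate solution at 4 weeks of age, and the STZ group (4 samples) received streptozotocin (STZ), which destroys pancreatic beta cells and so lowers insulin, at 60 mg/kg by intraperitoneal injection. Skin was taken 4 weeks later, at 8 weeks of age. The treatment text of the labels also mentions a skin wound and does not say whether the tissue on the arrays was wounded.

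The 8 samples are 4 arrays scanned 2 times each. In every group, replicates 1 and 3 shared an array position on the slide, as did replicates 2 and 4. This was checked on 10759 spots of all noncontrol probes printed in 3 or more spots, members or not. Only spots with a mean log2 signal above the median noncontrol intensity were used. The deviation of a spot from its probe's mean correlated at 0.978 or more between the scans of an array. Between any other samples it correlated at 0.699 or less. The SD over members of the log2 difference was 0.151 to 0.190 between scans and 0.911 to 1.23 between other samples of a group. Scans were therefore averaged, which leaves 2 arrays per group, called sham arrays 1 and 2 and STZ arrays 1 and 2 (replicates 1 and 3, and 2 and 4). No label says whether an array holds 1 animal or a pool, so p-values measure the spread between these arrays. STZ array 2 was the dimmest: its 75th percentile intensity over noncontrol spots was 606 and 624 in its scans, against 1138 to 1496 in the other 6 samples.

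Long noncoding RNAs are transcripts without an evident protein product. Some act in the nucleus on chromatin or splicing and others in the cytoplasm, and many are present in only a few cell types or stages. As a class they are known for lower levels than messenger RNAs, and most of those catalogued from cDNA libraries have no assigned function. In skin, such RNAs have been studied in keratinocyte differentiation, in the hair follicle and in immune cells. Levels below are log2 of the processed signal over the 75th percentile of the sample, so 0 means as bright as that percentile. A probe's brightness also depends on its own sequence, so the order of levels between transcripts is a description of probe signal.

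Most MRAK transcripts gave a signal in this skin. A sample counts as positive when the scanner software called at least 1 of the 3 spots well above background. By this rule 2724 members (75.9%) were positive in all 8 samples, 648 in some and 215 (5.99%) in none. Over all noncontrol probes, 80.1% were positive in all 8 samples and 3.71% in none. The share positive in all 8 samples was 84.0% for curated coding transcripts (NM_ accessions, 15321 probes) and 77.3% for RefSeq predicted noncoding transcripts (XR_, 1702). It was 71.7% for the MRuc accessions (685) and 46.0% for the ultraconserved elements (uc., 962). The 24684 noncontrol probes held 42136 spots, so many other probes had fewer spots than the 3 of a member. A probe with more spots has more chances of a positive call, so shares of members and of other probes are not strictly alike here or below.

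More members were positive in the STZ samples than in the sham samples. The sham samples had 2985, 3012, 2947 and 2928 positive members (replicates 1 to 4), and the STZ samples had 3102, 3204, 3065 and 3192. The groups did not overlap, and the STZ array 2 scans were the highest. Members moved as the array did, since all noncontrol probes gave 20603 to 21194 positives in sham and 21582 to 23182 in STZ. Of the members that differed, 124 were positive in both scans of STZ array 2 and in no other sample, against 11 for STZ array 1. The 124 are 3.46% of the members, and the same count over all noncontrol probes was 1122 (4.55%).

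**Figure D1:**
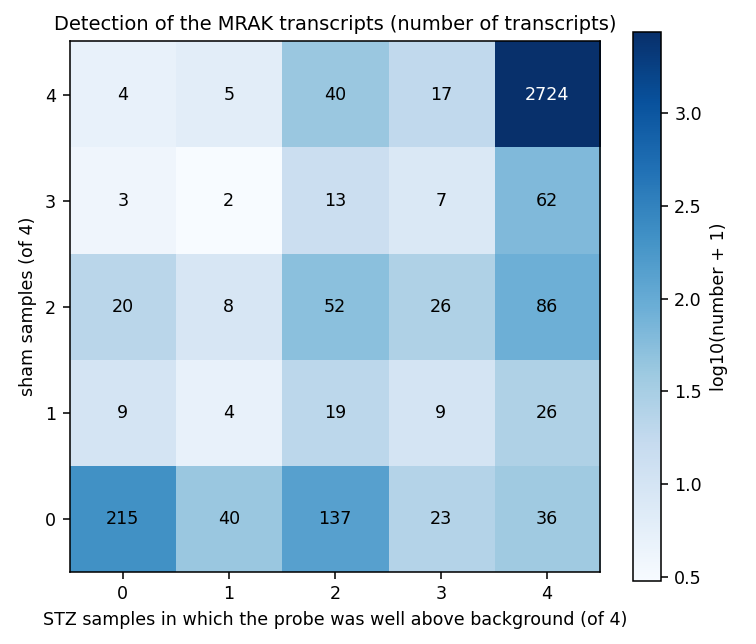
Number of MRAK transcripts in each cell of a grid, by how many of the 4 STZ samples (x axis) and 4 sham samples (y axis) were positive; darker cells hold more transcripts. The cell for all 8 samples holds 2724 of the 3587 transcripts and the cell for none holds 215.

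Detection restricted to a group was rare. All 4 STZ samples and no sham sample were positive for 36 members, where the background share over all noncontrol probes was 1.38%. All 4 sham samples and no STZ sample were positive for 4 members (0.112%), where the background share was 0.105%. The 36 are a slightly smaller share of the members than that, and the 4 about the same. For the 36 the sham level as read is uncertain, since no sham signal was well above background. On sham array 2, 857 member spots in the first scan and 1070 in the second held the lowest processed value of the array. A fold is written here as the STZ mean over the sham mean as read, relative to all tested probes. It is a measured difference and not a lower limit. The sham signal as read was never below the lowest signal of a detected probe on the same array. On the scale of the levels above, the fold ran from 1.36 to 12.6 higher in STZ for the 36, and the groups did not overlap for 29 of them. These folds do not carry over to every scaling. Under quantile normalization MRAK043426, whose 1.36-fold is the smallest, had a log2 change of −0.60. The changes of MRAK044315, MRAK081738 and MRAK137788 were also negative there. The 12.6-fold is that of MRAK020983, not well above background at −9.07 and −9.11 on the sham arrays. It read −6.71 and −3.67 on the STZ arrays, which lay far apart from each other. The 4 found in sham samples were MRAK002805, MRAK018481, MRAK038545 and MRAK083578, and in none did the sham and STZ arrays separate.

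MRAK signals were low compared with coding transcripts. Of the 3587 members, 3109 (86.7%) passed the filter used for testing, a positive call in 4 or more of the 8 samples, as did 88.6% of all probes. When most spots of a probe had to be positive, 2956 members passed instead of 3109, and 21527 of all probes instead of 21869. A member that is dim in 1 group can pass through the other group alone. On sham arrays 1 and 2 the tested members had median levels of −4.22 and −3.82, and on STZ arrays 1 and 2 of −3.96 and −3.32. The median over all tested probes was higher than that of the members on every array, by 2.20, 2.01, 2.12 and 1.70. The NM_ probes had medians between −0.61 and −0.56 on the 4 arrays. Over the members, the mean signal of the 4 arrays ran from −8.69 to 6.62, with quartiles of −5.31, −3.87 and −1.80. Of the tested members, 374 had a mean above the 75th percentile.

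**Figure D2:**
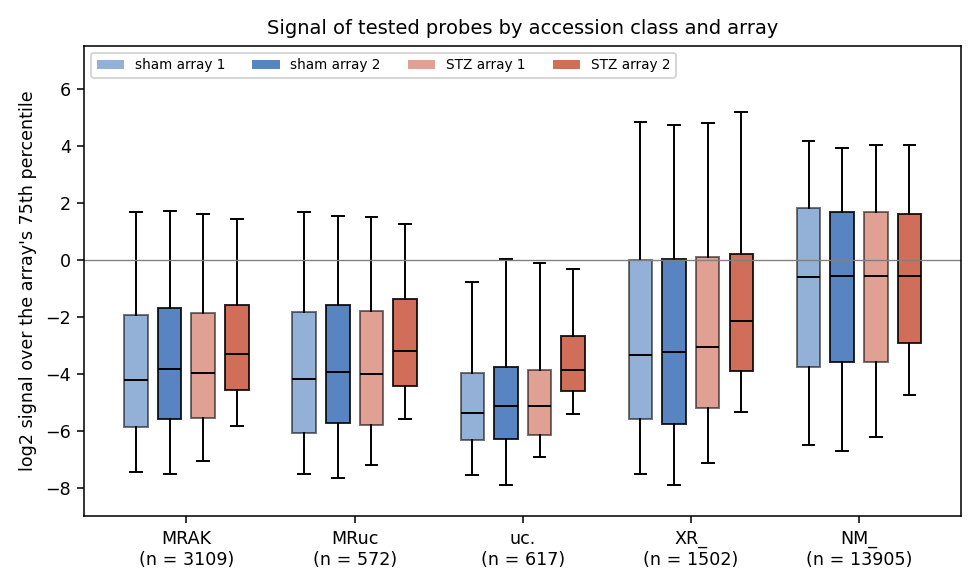
Log2 signal over the 75th percentile (y axis) of the tested probes of 5 accession classes on the 4 arrays; boxes show quartiles, the line the median and whiskers the 5th and 95th percentiles. The MRAK medians lie between −4.22 and −3.32, below the NM_ medians, and the MRAK median is highest on STZ array 2.

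The brightest members lay over 5 log2 units above the 75th percentile. MRAK154943 had the highest mean, with 6.43 and 6.50 on the sham arrays and 6.48 and 7.08 on the STZ arrays. MRAK132637 read 6.39, 6.38, 6.19 and 5.49 in the same order, and its groups did not overlap. MRAK078618 read 6.01, 5.77, 6.12 and 7.16, and MRAK038044 read 5.97, 5.10, 5.41 and 5.41. Relative to all tested probes, the changes of these 4 were 0.07, −0.79, 0.51 and −0.37, and the smallest unadjusted p of the 4 was 0.221 in limma's moderated test. At the other end, MRAK035470, MRAK140236, MRAK037613 and MRAK040445 were the dimmest among members positive in all 8 samples. MRAK035470 read −9.15, −8.62, −8.29 and −6.09, with the highest value on STZ array 2, as for the other 3.

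Some members hardly moved on the 75th percentile scale. MRAK016181 had the smallest SD over the 4 arrays, 0.021, with values of −2.72, −2.77, −2.73 and −2.76. MRAK147179, MRAK160236 and MRAK144766 followed, with SDs of 0.029, 0.037 and 0.040. On this scale the median change of all tested probes was 0.24, so the changes of these 4 relative to all probes were −0.25, −0.28, −0.21 and −0.19.

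Members varied more between the STZ arrays than between the sham arrays. The median absolute difference between arrays was 0.48 for sham and 0.96 for STZ over the tested members, and 0.44 and 0.74 over all tested probes. Across members, levels correlated at 0.945 between the sham arrays and at 0.902 between the STZ arrays. Across all tested probes the values were 0.968 and 0.941. These are correlations across transcripts of the same arrays, and transcripts are not independent replicates. The 3 spots of a member differed far less: the median spot SD was 0.111 for members positive in all 8 samples and 0.246 for the 215 positive in none.

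A few transcripts differed by over 16-fold between arrays of the same group, after the median difference of all tested probes between those arrays (0.03 in sham and −0.36 in STZ, array 1 minus array 2) was taken off. Among members positive in all 8 samples this held for 8 in sham and 5 in STZ, and for 3 in both groups. Those 3 were among only 5 such probes of 19778 on the whole array, and they were singled out after their values were seen. MRAK148606 read 0.21 and 7.67 on the sham arrays and 7.49 and 0.69 on the STZ arrays. MRAK149123 read 0.95 and 7.74 in sham and 7.40 and 1.40 in STZ. MRAK047196 read −6.12 and 0.35 in sham and −1.29 and −5.03 in STZ, and it passed in STZ only with that median difference taken off. The other two probes, XR_006359 and the probe annotated to Igfals (part of the circulating insulin-like growth factor complex), had the same pattern. All 5 were high on sham array 2 and STZ array 1. The changes of the 3 MRAK transcripts from sham to STZ were −0.09, −0.19 and −0.51, within the spread of either group. No probe was matched to Xist or to a Y-linked gene, so the labelled sex could not be checked.

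STZ was then compared with sham by limma's moderated test over 21869 tested probes, with changes given relative to the median change of all of them. The p-values and the direction of a call at an unadjusted p refer to the change before that median, 0.24, is taken off. No member passed an adjusted p of 0.05, and the background share of all probes was 0%. The smallest adjusted p of a member was 0.103 and of any probe 0.0819. With each array centred on the median of its tested probes, a scale chosen after the data were seen, 5 members passed, all lower in STZ, among 138 probes in all. They were MRAK160242, MRAK046251, MRAK047605, MRAK004359 and MRAK028845. Without STZ array 1, 3 members and 58 probes in all passed. At an unadjusted p under 0.05, 116 members (3.73%) were higher in STZ, where the background was 7.26%, and 62 (1.99%) were lower, where the background was 3.4%. Of the 116 higher, 22 were positive in no sham sample and passed the detection filter through the STZ group alone. The split turned with the scaling: quantile normalization gave 60 higher and 144 lower, and normexp with quantile normalization gave 46 and 119. With each array centred on the median of its tested probes, 107 were higher (3.44%; background 6.9%) and 80 lower (2.57%; background 4.18%).

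The counts at an unadjusted p also depended on each array. Without STZ array 1 there were 936 higher and 117 lower, without STZ array 2 there were 72 and 67, without sham array 1 there were 36 and 32, and without sham array 2 there were 47 and 19. In these fits the lone array of a group is assumed to vary like the other group. Without STZ array 1 the share of higher calls was 30.1% of members and 25.8% of all probes (5634), so the members' share lay above the background there and below it with all 4 arrays.

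The typical MRAK transcript lay slightly above the typical probe. The median change of the 3109 tested members was 0.17, with quartiles of −0.41 and 0.67, and 1800 lay above the median of all probes and 1309 below. The value is smaller than the SD between arrays of a group, 0.23, of the members' median taken relative to that of all probes. It was larger on STZ array 2: set against the sham mean, the members' median was 0.05 on STZ array 1 and 0.29 on STZ array 2. It was −0.13 under quantile normalization and −0.04 under normexp with quantile normalization. The medians of the other classes were 0.22 for MRuc, 0.53 for uc., 0.21 for XR_ and −0.13 for NM_.

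Large changes made up a smaller share of the members than of all tested probes, a difference that was not tested. The middle 90% of members lay between −1.20 and 1.47, and that of all tested probes between −1.37 and 1.95. The sham and STZ arrays did not overlap for 474 members higher in STZ (15.2%; background 17.3%) and for 574 lower (18.5%; background 26.7%). With a change of over 2-fold added, 269 were higher (8.65%; background 11.7%) and 196 lower (6.30%; background 8.46%). Of the 269, 29 were positive in no sham sample. Past 4-fold there were 47 higher (1.51%; background 4.41%) and 32 lower (1.03%; background 2.16%). Of the 47, 12 were positive in no sham sample.

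The direction of the change followed the brightness of the probe. Members were split at the quartiles of their mean signal, from dim to bright. The median change was 0.66 in the dimmest band, then 0.30, 0.07 and −0.41 in the brightest. Calls at an unadjusted p under 0.05 went the same way, with 58, 26, 22 and 10 higher and 2, 9, 15 and 36 lower. NM_ probes in the same signal bands had medians of 1.01, 0.52, −0.01 and −0.33, in the same order as the members. At an unadjusted p under 0.05, in the dimmest band 7.46% of members and 16.3% of NM_ probes were higher. In the brightest band 4.63% of members and 5.11% of NM_ probes were lower, and these differences were not tested. Most of the gradient lay on STZ array 2, the dimmest array. With each array's median of all tested probes taken off, the members' band medians on STZ array 1 minus the sham mean were 0.17, 0.02, −0.02 and −0.21 from dim to bright. On STZ array 2 they were 1.26, 0.67, 0.20 and −0.42.

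**Figure D3:**
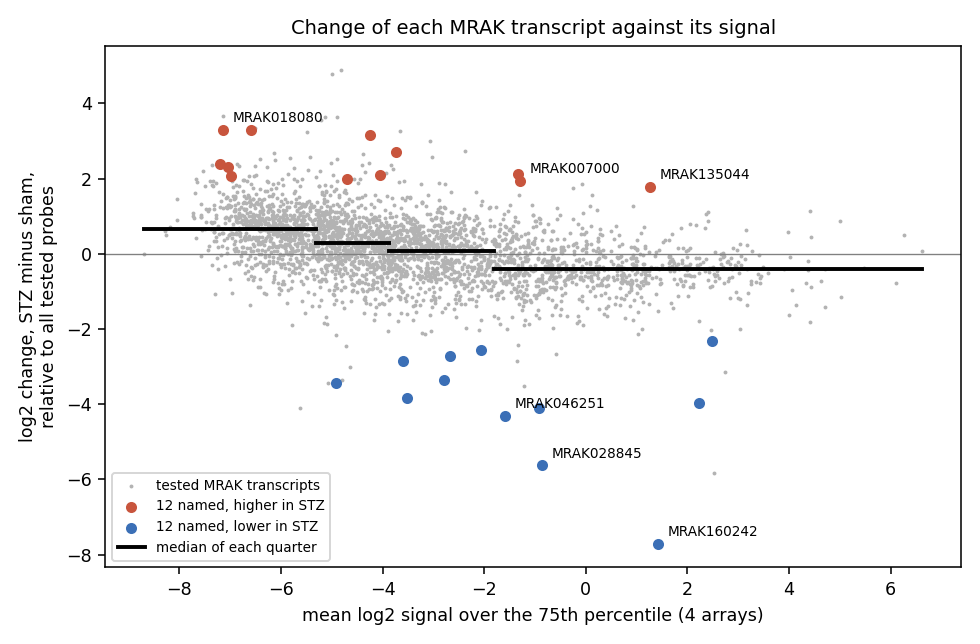
Log2 change of each tested MRAK transcript, STZ minus sham relative to all tested probes (y axis), against its mean log2 signal over the 4 arrays (x axis). The medians of the 4 signal bands fall from 0.66 at the dim end to −0.41 at the bright end.

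Among members lower in STZ, MRAK160242 stood far from the rest. Its processed intensity was 45780, 41250, 47270 and 42510 in the sham samples (replicates 1 to 4) and 491, 75.43, 494 and 76.75 in the STZ samples. Every sham sample lay far above every STZ sample, and the STZ arrays differed from each other too. Relative to all probes its change was −7.71 ± 0.62 (SE, 2 arrays per group), a 209-fold lower level in STZ, with an unadjusted p of 7.11e-05 and an adjusted p of 0.103 in limma's test. Leaving out each array in turn gave changes between −8.58 and −6.79. Its adjusted p was 0.0215 to 0.848 over the 16 other settings tried.

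The next members were dimmer in sham and also separated widely. MRAK046251 had intensities of 1260, 2177, 1299 and 2240 in sham and 105.2, 55.36, 107.2 and 57.88 in STZ. Its change was −4.31 ± 0.47 (adjusted p = 0.107, limma). MRAK047605 read 1.24 and 0.77 on the sham arrays and −3.14 and −2.58 on the STZ arrays, a change of −4.11 ± 0.48. MRAK004359 read 3.51 and 4.66 in sham and 0.19 and 0.51 in STZ, a change of −3.98 ± 0.56. In both the arrays of a group lay far closer to each other than the groups did.

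MRAK028845 read 1.70 and 1.96 in sham and −2.43 and −4.68 in STZ, a change of −5.63 ± 0.83, the second largest of the 12 lower members with the smallest p. The other 7 were MRAK035782, MRAK052224, MRAK161159, MRAK079551, MRAK160844, MRAK052334 and MRAK031408. Their changes ran from −3.84 to −2.32. Of these, MRAK052334 was the only bright transcript, at 3.57 and 3.49 in sham and 1.71 and 1.20 in STZ. All 12 were positive in all 8 samples, and their adjusted p ran from 0.103 to 0.220. STZ array 2 was the lower STZ array for 5 of the 12.

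Members higher in STZ were mostly dim. Of the 12 with the smallest p, 9 had a sham mean under −5, and 4 were positive in no sham sample. STZ array 2 was the higher STZ array in all 12. MRAK018080 had the smallest p, with intensities of 1.848, 3.42, 1.988 and 3.468 in sham and 31.4, 17.14, 30.68 and 17.38 in STZ. No sham sample was positive for it and all STZ samples were. The sham level is therefore uncertain. With it as read, the STZ level was 9.81-fold higher relative to all tested probes, a change of 3.29 ± 0.49 (adjusted p = 0.135, limma). The group means on the log2 scale were −8.91 and −5.37.

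Others of the 12 were brighter in both groups. MRAK007000 had intensities of 207.3, 260.5, 214.4 and 270.1 in sham and 1186, 566.8, 1203 and 587.4 in STZ. On the scaled axis its STZ arrays read −0.32 and −0.09 against −2.45 and −2.31 in sham, a change of 1.94 ± 0.43. MRAK135044, the brightest of the 12, read 0.36 and 0.16 in sham and 2.07 and 2.49 in STZ, a change of 1.78 ± 0.44. MRAK040264 read −2.07 and −2.98 in sham and −0.22 and −0.09 in STZ, a change of 2.13 ± 0.51. In all 3 the groups did not overlap.

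MRAK149231 read −4.81 and −5.60 in sham and −2.72 and −1.77 in STZ, a change of 2.72 ± 0.57. MRAK012306 read −5.17 and −6.72 in sham and −3.13 and −1.99 in STZ, a change of 3.15 ± 0.74. Under normexp with quantile normalization the changes of MRAK007000, MRAK135044, MRAK040264, MRAK149231 and MRAK012306 were 1.78, 1.96, 1.82, 1.44 and 1.40. MRAK080501, MRAK037273 (positive in 1 of 4 sham samples) and MRAK150131 had changes of 2.08, 2.38 and 1.98 on the 75th percentile scale, and of 0.89, 0.15 and 0.60 under normexp with quantile normalization, which adds an offset of 50 intensity units. MRAK080501 had close values within each group, at −5.17 and −5.25 in sham and −2.91 and −2.86 in STZ. MRAK040226, MRAK040253 and MRAK045258 were, like MRAK018080, positive in no sham sample. On the 75th percentile scale they were 4.197-fold, 9.70-fold and 4.95-fold higher in STZ, with the uncertain sham level as read. Under normexp with quantile normalization their log2 changes were 0.11, 0.42 and 0.13, and that of MRAK018080 was 0.33. The folds of these transcripts therefore do not carry over to that scaling. The adjusted p of the 12 ran from 0.135 to 0.218.

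**Figure D4:**
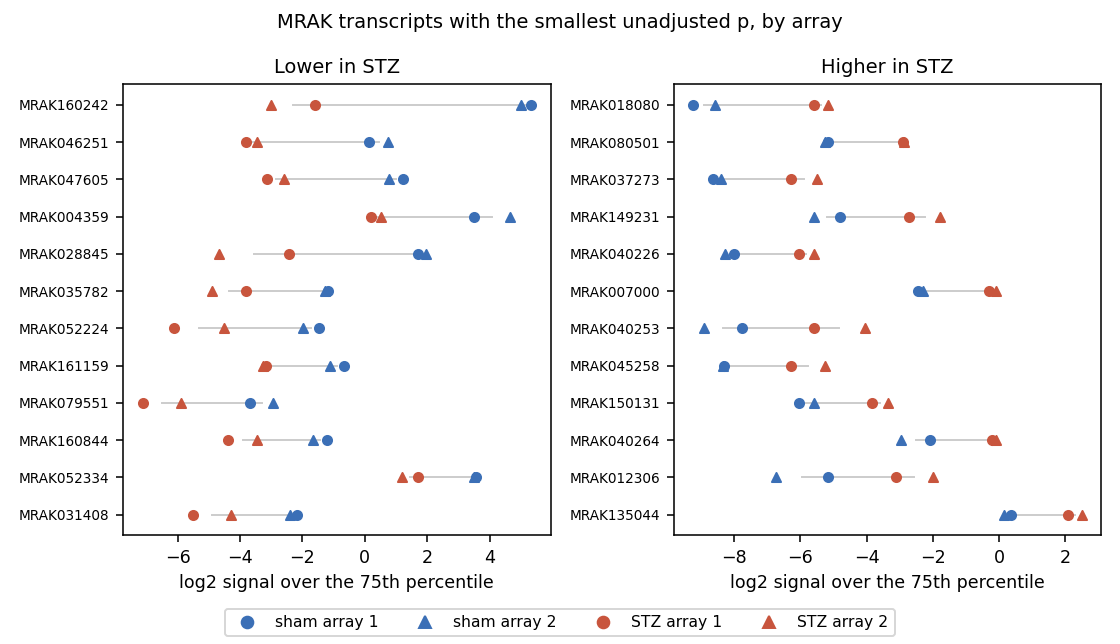
Log2 signal over the 75th percentile (x axis) on each of the 4 arrays for the 12 MRAK transcripts each way with the smallest unadjusted p; circles are array 1 and triangles array 2 of a group, and the line joins the group means. MRAK160242 lies at 5.33 and 4.99 on the sham arrays and at −1.60 and −3.01 on the STZ arrays, and most of the higher transcripts start below −5.

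Changes that were over 2-fold, with the groups apart, under each of 4 scalings were counted, a choice made after the data were seen. They were the 75th percentile, quantile normalization, the median of the tested probes, and normexp with quantile normalization. The median scale gives the same relative change as the 75th percentile by its construction, so only the separation of the groups can differ under it and the 2-fold condition rests on 3 scalings. Of the members, 42 were higher (1.35%; 4.77% of all tested probes) and 88 lower (2.83%; 4.42% of all). All 12 of the lower transcripts described above were among them, and 5 of the 12 higher ones. The higher 5 were those with changes of 1.40 or more under normexp with quantile normalization. That scaling adds an offset of 50 intensity units, while MRAK018080, for example, had 17.14 to 31.4 in the STZ samples. Dim transcripts higher in STZ could therefore hardly pass 2-fold there. The counts cannot decide whether their changes hold, and the higher and lower counts are not alike in this.

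**Figure D5:**
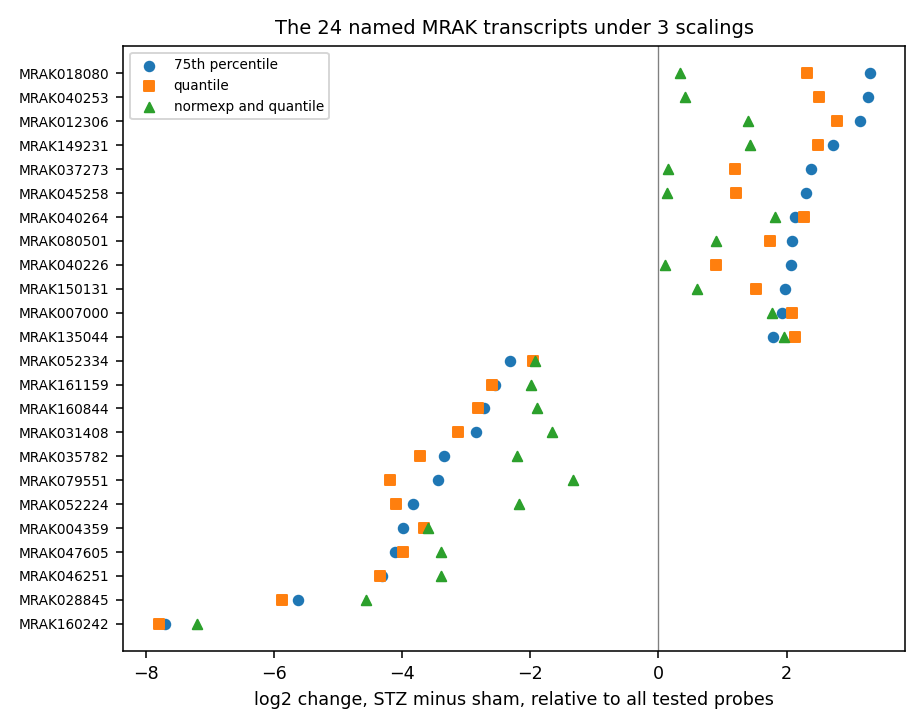
Log2 change relative to all tested probes (x axis) of the same 24 MRAK transcripts (y axis) under 3 scalings. The lower transcripts stay past a 2-fold change under each, while MRAK037273 goes from 2.38 to 0.15; the points of MRAK018080, MRAK040226, MRAK040253 and MRAK045258 are measured differences from a sham signal not above background.

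Other large changes lay outside the rule for named transcripts and were picked after their values were seen. MRAK020698 read 5.28 and 5.38 in sham and 1.83 and −2.35 in STZ, a change of −5.83 with STZ arrays over 4 log2 units apart. MRAK159688 read 4.81 and 3.60 in sham and 0.80 and 1.80 in STZ, a change of −3.14. MRAK004158 read −6.35 and −8.42 in sham and −3.91 and −0.59 in STZ, a change of 4.90, the spread within each group being over 2 log2 units. MRAK143100 read −1.02 and −1.20 in sham and 0.68 and 1.27 in STZ, a change of 1.84.

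The named genes nearest to a member over the 4 arrays were found among 12615 genes, by Euclidean distance in log2 units after each row's mean was subtracted. Over 4 arrays such likeness is a description only. For MRAK160242 the nearest was Krt40, a hair keratin, at a distance of 0.785, then Actbl2, an actin, and Slc4a1, the anion exchanger of red cells. Krt40 read 0.78 and 0.22 in sham and −6.43 and −6.86 in STZ. For MRAK046251 the nearest were Dlx1, a homeobox gene, Krtap5-8, a keratin-associated protein of the hair shaft, and Sptb, the red cell spectrin, at 0.319 to 0.420. For MRAK047605 they were Agt, Slc9a2 and Apoa5, the first and last encoding angiotensinogen and an apolipoprotein, at 0.446 to 0.584.

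Among the higher members, MRAK080501 was nearest to Abcb4, a phospholipid transporter, at 0.049, then to Irf8, a transcription factor of myeloid and B cells, and Ltb, lymphotoxin beta. MRAK037273 was nearest to Gimap7, a lymphocyte GTPase, to C3, the central complement component, and to Apcs, a pentraxin. MRAK018080 was nearest to Nefl, a neurofilament subunit, Ankrd34c and Sln, a regulator of the muscle calcium pump. On the sham arrays Nefl read −9.21 and −8.55 and Ankrd34c −9.27 and −8.68. These were as low as MRAK018080 at −9.24 and −8.58, while Sln read −1.52 and −0.77. MRAK080501 had 42 genes within a distance of 0.5, MRAK037273 had 15, and MRAK160242 had 0, so several of these neighbours are not distinctive.

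Markers of cell types differed between the groups in the same samples, and in bulk skin fewer cells of a type and less RNA per cell cannot be told apart. Epidermal keratinocyte markers (6 tested) had mean levels of 5.50 and 4.89 in sham and 5.51 and 4.86 in STZ. These genes define the labelled tissue. Of the 6, 2 were higher and 4 lower, with a median change of −0.42. The close means hide opposite moves, as Ivl was lower (−1.91) and Krt1 higher (1.32), each with the groups apart. Hair shaft and root sheath markers were lower in STZ for 23 of 24, all 23 at an unadjusted p under 0.05. Their means were 3.61 and 3.96 in sham and −0.67 and −3.24 in STZ, and their median change was −6.28. Erythroid markers (9 of 9 lower) had means of 1.89 and 2.74 in sham and −0.99 and −1.05 in STZ. Adipocyte markers (10 of 10 lower) had means of 3.24 and 3.43 against 1.16 and 2.03.

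Markers of several immune cell types were higher in STZ, and others were not. Neutrophil markers (10 of 10 higher) had means of −4.06 and −4.42 in sham and −0.06 and −0.42 in STZ. Macrophage and dendritic cell markers (15 of 15) had means of 1.47 and 0.82 against 3.33 and 3.37, and T and NK cell markers (15 of 15) had −2.83 and −3.36 against −0.87 and 0.04. Mast cell markers were lower for 8 of 9, with a median change of −1.13, and B and plasma cell markers were higher for 3 and lower for 3, with a median of 0.24. No marker of any list passed an adjusted p of 0.05. The part of these cell type differences in the changes of the MRAK transcripts was not tested.

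Well-studied long noncoding RNAs were looked for by name, and 4 of 43 were tested. Gas5, a host of small nucleolar RNAs, had a change of 0.56 ± 0.55, and H19, an imprinted RNA, by 0.37 ± 0.55. Terc, the RNA component of telomerase, had −0.88 ± 0.74, and Rpph1, the RNA of ribonuclease P, had −0.51 ± 0.87. None passed the test.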

How the data were processed

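Per the labels' protocols, amplified RNA carried a Cy3 label and was read in 1 colour on Agilent arrays. Per the file headers, Agilent Feature Extraction 11.0.1.1 gave the deposited intensity of each spot (processed signal, background-subtracted, not normalized between arrays) and the other values used, 0 or 1 flags per spot; version 11.0.0.1 stands in the submitters' processing notes. Deposited median spot and background intensities served 1 alternative, normexp.

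Log2 signals were taken minus the 75th percentile of 42136 noncontrol spots per sample, spots of a probe were averaged without outlier-flagged ones (all spots were used for 99 values with every spot flagged), and scans were averaged. Limma 3.58.1 (R 4.3.3; lmFit, eBayes, two-sided) was fitted to all tested probes with Benjamini-Hochberg adjustment; the p tests the change on the 75th percentile scale. An exact permutation test of 2 against 2 arrays cannot go below 0.333. The number of arrays limits precision.

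Members named were the 12 each way with the smallest p among those with groups apart, those detected in 1 group, the 4 brightest, dimmest and steadiest, and the 3 nearest genes of 3 members each way. Members and lists were chosen with earlier results of these data known. Same-numbered arrays were not paired: their deviations correlated at −0.199. Symbols were found for 14274 of 15321 NM_ accessions in the RefSeq table of rat assembly GRCr8. Positions are not printed, because the headers name an older build. The script was tested on simulated data.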

Additional observations from a re-analysis of the deposited data

How the results depend on the processing

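The number of members past an adjusted p of 0.05, 0 on the 75th percentile scale (limma; 116 higher and 62 lower by unadjusted p), was 5 with each array centred on the median of its tested probes (MRAK160242, MRAK046251, MRAK047605, MRAK004359 and MRAK028845; 138 probes in all), and 0 to 3 with an array left out. Members higher at an unadjusted p under 0.05 numbered 60 under quantile normalization (51 of the 116 shared) and 46 under normexp with quantile normalization (24 shared), and 36 to 936 with an array left out. Lower ones numbered 144, 119 and 19 to 117, with 62 and 61 of the 62 shared. The median change turned to −0.13 and −0.038. Groups were apart for 883 to 1525 higher and 765 to 1113 lower members with an array left out, since fewer arrays separate more easily. The array number as a replicate block gave 118 higher and 44 lower, and crossed numbers 174 and 64. Of 1083 values of 72 named members under 16 settings, 12 reversed, sign changes being counted for all but the 12 brightest, dimmest and steadiest. Quantile normalization gave −0.60 for MRAK043426, −0.071 for MRAK044315, −0.060 for MRAK081738 and −0.0025 for MRAK137788, and normexp gave −0.042 for MRAK043426. With an array left out, MRAK044315 ran from −0.14 to 2.18, MRAK081738 from −0.15 to 1.60, MRAK158494 from −0.11 to 2.19, MRAK002805 from −1.04 to 0.96 and MRAK083578 from −0.50 to 0.33. Each of these 7 was above background in 1 group alone, and the cause was not tested. Slide as a block was not run, as there is 1 slide, and the files hold no mean signal, so normexp used the median signal.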
